A study of Mus musculus with 8 samples.

Results

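Krt6a, Krt6b, Krt16 and Krt17 are the keratins that mouse epidermis makes under stress and that the hair follicle makes in its outer layers. They were picked by gene name and are 4 of the 56748 genes in the count and FPKM tables. Keratins form filaments as pairs of one type I and one type II chain. Krt6a and Krt6b are type II chains, and Krt16 and Krt17 are their type I partners. In healthy skin, Krt6a and Krt17 are made mainly in the hair follicle, Krt6a in the companion layer, the sleeve of cells between the outer and inner root sheaths. Wounding and inflammation switch on all of them, Krt6b and Krt16 included, in the epidermis between the follicles.

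Whole skin was taken from 8 male mice aged 35 weeks, of which 5 were wild-type (NPY +/+) and 3 were NPY-tet (NPY tet/tet, from the strain B6;129S4-Npytm2Rpa/J). The wild-type mice were siblings of the NPY-tet mice, and no other treatment was given to either group. The labels give neither the cells in which the altered Npy allele is active nor the body site the skin came from. RNA was poly(A)-selected and sequenced without strand information. The question is whether NPY-tet skin differs from wild-type skin in these keratins, and how each keratin stands against the hair shaft keratins of the same library.

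Libraries held 31370433 to 47495565 counts. Npy, the gene that carries the altered allele, had 300 to 322 CPM (counts scaled to library size with the trimmed mean of M-values, TMM) in NPY-tet skin and 0.159 to 0.502 CPM in wild-type skin. It was the 1 gene of 18495 tested that passed an adjusted p of 0.05 (log2 fold change 10.37, SE 0.28, edgeR's quasi-likelihood test with Benjamini-Hochberg adjustment), which is 0.00541% of the genes tested. The libraries of each genotype also differed among themselves. Ribosomal RNA made up 6.44 to 8.07% of counts in wild-type 1, 2, 3 and 5 and NPY-tet 1, but 0.0388 to 0.0754% in wild-type 4 and NPY-tet 2 and 3. The summed CPM of 15 hair shaft keratins, the structural proteins of growing hair, ranged from 6.25 in wild-type 2 to 1246 in wild-type 5. Because whole skin is a mixture, more cells of one type and more RNA per cell cannot be told apart in what follows.

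Krt6a and Krt6b lie close together on chromosome 15 of mm39, on the minus strand, at 101598345 to 101602742 and 101584458 to 101588722. Krt16 (100136917 to 100139728) and Krt17 (100147043 to 100151855) are neighbours on the minus strand of chromosome 11. The coding sequences of Krt6a (1659 bases) and Krt6b (1662 bases) were 97.6% identical in GENCODE M21, with 37 substituted and 3 gapped positions. Their longest identical stretch was 280 bases, and 29.5% of all 100-base windows of the Krt6a transcript occurred unchanged in Krt6b, so part of the reads of the pair cannot be assigned to one gene by sequence. The stretch that separates the pair best, coding bases 787 to 876 on the coding strand, is shown because a read from it can be assigned to one gene; capitals mark the 12 bases that differ.
Krt6a: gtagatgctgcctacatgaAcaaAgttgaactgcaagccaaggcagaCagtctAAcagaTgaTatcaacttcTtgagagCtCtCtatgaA
Krt6b: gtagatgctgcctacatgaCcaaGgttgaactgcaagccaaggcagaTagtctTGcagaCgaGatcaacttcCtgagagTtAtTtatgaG
Krt16 shared 12.4% of its 50-base windows with Krt14, the main basal-layer type I keratin, and 0.396% with Krt17. At 100 bases, the length used for Krt6a and Krt6b above, these shares were 3.14% and 0%. How reads that match both genes were counted is not given in the sources used here, so the Krt6b values are uncertain.

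The 4 keratins kept one order in every library. On the length-scaled FPKM scale the level of Krt17 was 278 to 777, that of Krt6a 14.7 to 107, that of Krt16 2.88 to 23.5 and that of Krt6b 0.0297 to 0.717. Across libraries, the FPKM ranges of Krt6a and Krt16 overlapped and those of the other neighbours in this order did not. Krt17 reached 25.6 to 86.4% of the FPKM level of Krt14, whereas Krt6b was at most 1.26% of Krt6a.

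Krt17, made in the outer root sheath and in stressed epidermis, had 694, 437, 479, 713 and 1213 CPM in wild-type 1 to 5 and 965, 790 and 697 CPM in NPY-tet 1 to 3. The groups overlapped, since the highest library was wild-type 5 and NPY-tet 3 was below wild-type 4. The mean was 707 ± 309 CPM in wild-type (SD, n = 5) and 818 ± 136 CPM in NPY-tet (SD, n = 3). The log2 fold change, NPY-tet over wild-type, was 0.21 (SE 0.30), with an adjusted p of 0.898 in edgeR's quasi-likelihood test.

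Krt6a, the constitutive companion-layer type II chain, had 64.8, 36.001, 44.7, 55.5 and 259 CPM in wild-type 1 to 5. NPY-tet 1 to 3 had 140, 110 and 73.4 CPM. All 3 NPY-tet libraries lay above wild-type 1 to 4, and wild-type 5 lay above all of them. The means were 92.1 ± 94.2 CPM (SD, n = 5) and 108 ± 33.1 CPM (SD, n = 3), and the log2 fold change was 0.22 (SE 0.73, edgeR adjusted p = 0.957). A non-coding gene on the opposite strand, Gm49428, overlaps Krt6a, and reads of the pair cannot be told apart without strand information. It had at most 0.258 CPM.

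Krt16, the wound-induced type I chain, had 8.15, 4.56, 8.15, 5.14 and 37.1 CPM in wild-type 1 to 5. It had 27.6, 10.3 and 10.2 CPM in NPY-tet 1 to 3. Its pattern was that of Krt6a, with wild-type 5 highest and the other 4 wild-type libraries below every NPY-tet library. The means were 12.6 ± 13.8 CPM (SD, n = 5) and 16.0 ± 10.04 CPM (SD, n = 3), with a log2 fold change of 0.35 (SE 0.83, edgeR adjusted p = 0.942).

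Krt6b, the wound-induced type II chain, was barely detected. Its counts were 8, 6, 11, 9 and 2 in wild-type 1 to 5 and 63, 12 and 12 in NPY-tet 1 to 3, or 0.254, 0.152, 0.369, 0.180 and 0.0669 CPM against 1.62, 0.325 and 0.346 CPM. NPY-tet 1 stood alone, and the other 2 NPY-tet libraries lay below wild-type 3. The log2 fold change was 1.90 (SE 0.67, edgeR adjusted p = 0.759), with an unadjusted p of 0.0150 in the same edgeR fit. Without NPY-tet 1 the log2 fold change was 0.73. The gene passed the filter on low counts, 0.292 CPM in at least 3 libraries, through 1 wild-type and 3 NPY-tet libraries, so it was kept mainly through the group where it is higher. Wild-type 5 had the most Krt6a counts of any library, 7760, and the fewest Krt6b counts, 2.

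**Figure D1:**
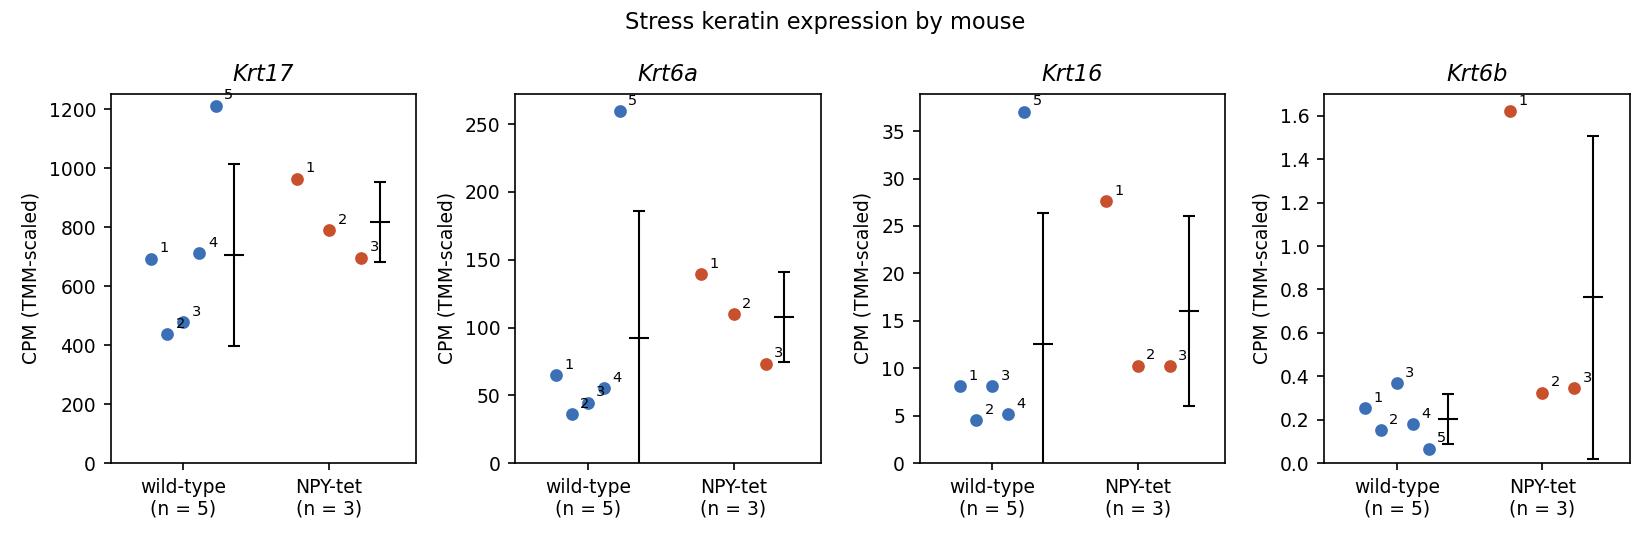
CPM (TMM-scaled, linear axes from 0) of each keratin in each mouse, numbered by replicate, with the mean and SD of each group as black bars beside the points; bars that would pass below 0 are clipped. Wild-type 5 is the highest library for Krt17 (1213), Krt6a (259) and Krt16 (37.1) and the lowest for Krt6b (0.0669), and NPY-tet 1 is the highest for Krt6b (1.62).

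None of the 4 keratins differed between genotypes by the adjusted test, and the groups overlapped for each. Across all genes, 0.00541% passed and 3.78% had groups that did not overlap. Krt6b was 1 of 4 with an unadjusted p under 0.05 and higher in NPY-tet, against 2.43% of all genes in that direction and 5.98% in either. Krt6b was kept by the filter mainly through NPY-tet, so this count supports nothing about the 4. The fitted value was higher in NPY-tet for 4 of 4, against 50.7% of all genes. DESeq2 and limma-voom also called none of the 4. DESeq2 gave no adjusted p for Krt16.

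1 wild-type mouse set much of the spread. Without wild-type 5 the log2 fold change was 1.10 for Krt6a (edgeR adjusted p = 0.278), 1.31 for Krt16 (edgeR adjusted p = 0.365) and 0.50 for Krt17 (edgeR adjusted p = 0.538). Without NPY-tet 1 it was -0.0093 for Krt6a, -0.30 for Krt16 and 0.076 for Krt17. Within the libraries rich in ribosomal RNA, which hold 1 NPY-tet mouse, it was 0.48 for Krt6a, 0.95 for Krt16, 0.47 for Krt17 and 2.95 for Krt6b. Within the poor ones, which hold 1 wild-type mouse, it was 0.71, 0.98, 0.048 and 0.88 in the same order. In each, the lone mouse of a group is assumed to vary like the others.

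**Figure D2:**
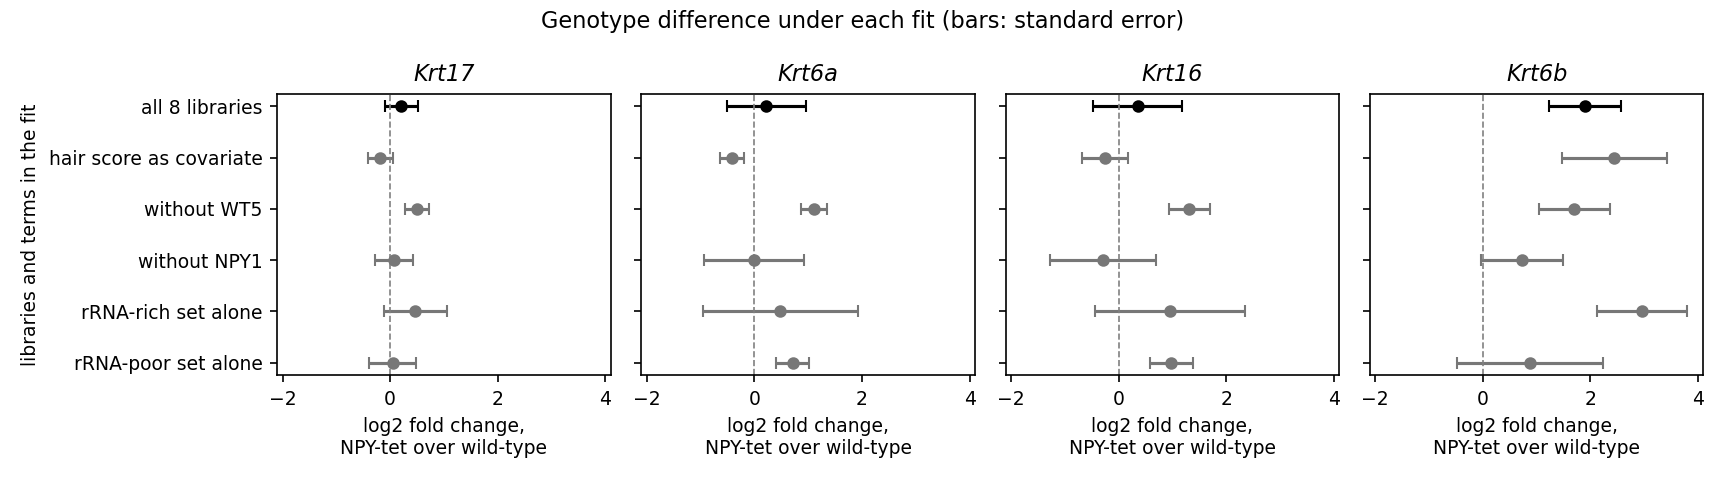
Log2 fold change of each keratin, NPY-tet over wild-type, with bars of 1 standard error, in the fit of all 8 libraries (black) and in 5 other fits (grey). Krt6a moves from 0.22 with all libraries to 1.10 without wild-type 5 and to -0.41 with the hair keratin score in the model; Krt6b is above 0 in each fit shown.

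The hair keratin score, the mean log2 CPM of the 15 hair shaft keratins, put the libraries in the order wild-type 2 (-2.69), wild-type 4 (-2.35), wild-type 3 (-1.89), wild-type 1 (0.30), NPY-tet 3 (1.22), NPY-tet 1 (3.47), NPY-tet 2 (5.04) and wild-type 5 (5.57). All 3 NPY-tet libraries thus lay above wild-type 1 to 4, as they did for Krt6a and Krt16. With the score in the model, the log2 fold change for genotype was -0.41 (SE 0.23) for Krt6a, -0.25 (SE 0.43) for Krt16, -0.18 (SE 0.24) for Krt17 and 2.45 (SE 0.98) for Krt6b. Each had an edgeR adjusted p of 0.999.

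In the same edgeR fit, Krt6a rose by 0.30 log2 units per unit of hair keratin score (SE 0.033, adjusted p = 0.000254) and Krt16 by 0.32 (SE 0.064, adjusted p = 0.0473). The slope was 0.14 for Krt17 (SE 0.036, edgeR adjusted p = 0.107; 0.0268 without wild-type 4 and 0.0165 with limma-voom) and -0.13 for Krt6b (SE 0.17, edgeR adjusted p = 0.921). So 2 of 4 passed in the rising direction, against 1.78% of all genes tested. These slopes rest on wild-type 5. Without that library the slope was 0.19 for Krt6a and 0.16 for Krt16, both with an edgeR adjusted p of 1, and 26 genes passed in place of 344. The call for Krt16 also ended when wild-type 1, 2, 3 or 4 or NPY-tet 3 was left out, with edgeR adjusted p from 0.1003 to 0.153.

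The libraries with the highest hair keratin scores, NPY-tet 2 and wild-type 5, differed in their stress keratins. NPY-tet 2 lay below the line through all 8 libraries by 1.12 log2 units for Krt16, 0.59 for Krt6a and 0.34 for Krt17. Wild-type 5 lay above it by 0.58 for Krt16, 0.52 for Krt6a and 0.22 for Krt17. Other libraries also stood off the line, NPY-tet 1 by 0.73 above it for Krt16, wild-type 3 by 0.41 above it for Krt16, and wild-type 4 by 0.42 above it for Krt17 and 0.37 for Krt6a. For Krt6b, NPY-tet 1 lay 2.18 log2 units above the line and wild-type 5 1.69 below it.

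**Figure D3:**
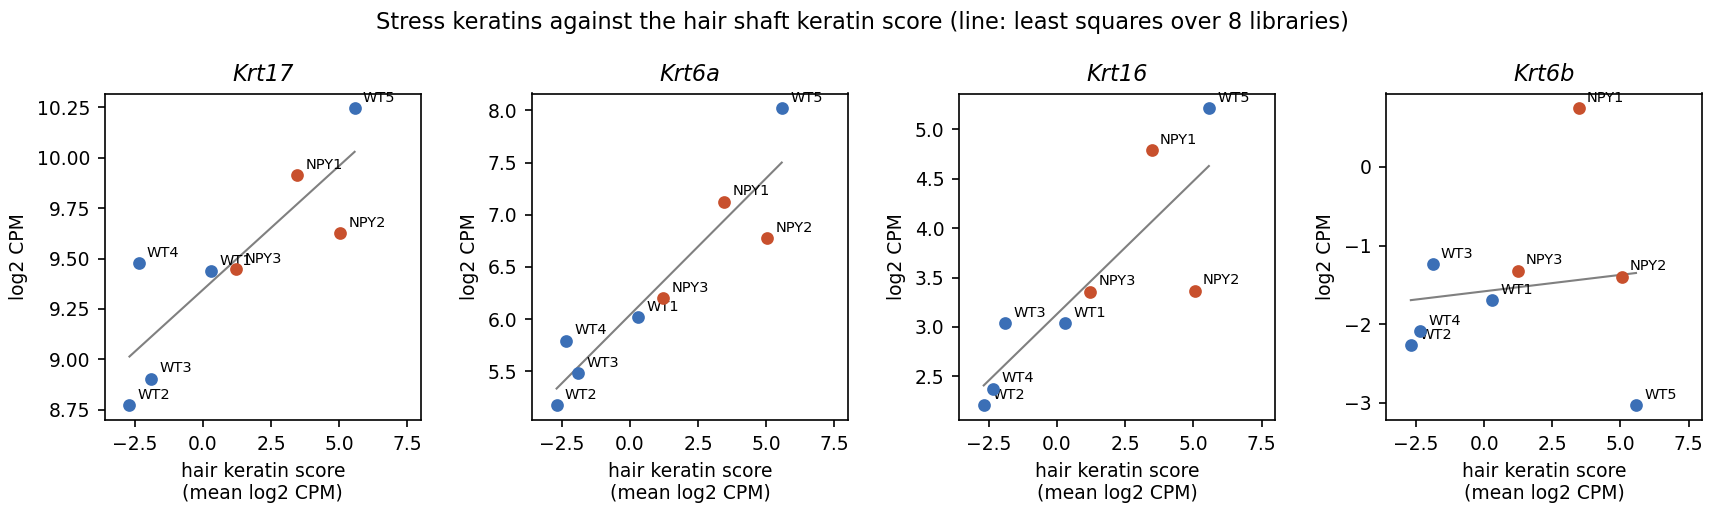
Log2 CPM of each keratin against the hair keratin score (mean log2 CPM of 15 hair shaft keratins), 1 point per library, blue for wild-type and orange for NPY-tet, with a least-squares line over the 8 libraries. Krt6a and Krt16 are lowest at the left in wild-type 2 and highest at the right in wild-type 5, while NPY-tet 2, at a score of 5.04, lies below the line for Krt17, Krt6a and Krt16; Krt6b shows NPY-tet 1 above and wild-type 5 below all others.

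Set against the summed hair shaft keratins of the same library, Krt17 gave a CPM ratio of 21.9, 69.9, 59.8, 75.6 and 0.974 in wild-type 1 to 5 and of 3.55, 0.817 and 9.43 in NPY-tet 1 to 3. The Krt6a ratio was 2.05, 5.76, 5.58, 5.88 and 0.208 in wild-type and 0.514, 0.113 and 0.993 in NPY-tet. Wild-type 5 again lay among the NPY-tet libraries. The NPY-tet minus wild-type difference in the log2 ratio was -2.95 for Krt17 (exact permutation test, two-sided, p = 0.143), -2.64 for Krt6a (exact p = 0.143), -2.57 for Krt16 (exact p = 0.125) and -1.56 for Krt6b (exact p = 0.589), where 56 splits allow no p under 0.0179. Without wild-type 5 the difference was -4.09 for Krt17, -3.52 for Krt6a, -3.42 for Krt16 and -3.27 for Krt6b, each with an exact permutation p of 0.0286, the smallest that 4 against 3 libraries can give. The 4 ratios share 1 denominator, which was 6.25 to 31.7 CPM in wild-type 1 to 4 and 74.0 to 968 CPM in NPY-tet. It separates these libraries by itself, so the 4 p are not separate results about the stress keratins. Against Krt14 plus Krt5, the basal-layer keratin pair, the difference in the log2 ratio was 0.47 for Krt17, 0.78 for Krt6a, 0.85 for Krt16 and 1.86 for Krt6b, with exact permutation p from 0.0714 to 0.393. Against the inner root sheath keratins it was -4.79 for Krt17, -4.48 for Krt6a, -4.42 for Krt16 and -3.40 for Krt6b, with exact permutation p from 0.0893 to 0.357. The sign therefore depended on which keratins stood in the denominator.

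Krt75, the type II keratin used to mark the companion layer, had 75.3, 35.0, 33.3, 47.3 and 250 CPM in wild-type 1 to 5 and 108, 166 and 39.1 CPM in NPY-tet 1 to 3. Its slope on the hair keratin score was 0.37 (SE 0.033, edgeR adjusted p = 4.47e-05), and without wild-type 5 it was 0.46 (edgeR adjusted p = 0.0463). The FPKM ratio of Krt6a to Krt75 was 1.16 to 1.81 in wild-type, and 1.75, 0.892 and 2.54 in NPY-tet 1 to 3. NPY-tet 2 thus had less Krt6a than Krt75, and every other library had more. Of 8 genes listed for companion layer, outer root sheath and bulge, 6 were higher and 2 lower in NPY-tet (median log2 fold change 0.17, against 0.0041 for all genes tested), none passed the adjusted edgeR test, and 3 had a rising slope that passed, against 1.78% of all genes. All 15 hair shaft keratins and 7 of 9 inner root sheath genes had a slope that passed; the 15 make up the score itself.

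The epidermal keratins had fitted differences of the opposite sign, which rested on NPY-tet 1. All 8 were lower in NPY-tet by fitted value and none passed (edgeR adjusted test; none at an unadjusted p under 0.05; median log2 fold change -0.17). Without NPY-tet 1, 5 were higher and 3 lower, with a median of 0.0096. Krt1, the early-differentiation type II chain, had a log2 fold change of -0.33 (SE 0.30) and Krt14 one of -0.21 (SE 0.24); without NPY-tet 1 these were -0.0030 and 0.012. NPY-tet 1 had the lowest Krt1 (691 CPM) and Krt14 (1266 CPM) of the 8 libraries. Markers of other skin cells also had group differences in fitted level, none past the adjusted edgeR test. White adipocyte genes were lower for 5 of 5, with a mean log2 CPM of 9.02 to 9.73 in wild-type and 8.31 to 9.62 in NPY-tet. Skeletal muscle genes were lower for 5 of 6, with 10.70 to 12.16 in wild-type and 10.54 to 11.56 in NPY-tet. Sebocyte genes were higher for 5 of 6, with 5.96 to 6.41 in wild-type and 6.61 to 6.74 in NPY-tet, groups that did not overlap. Among single genes, 1.81% had groups that did not overlap with NPY-tet above. The summed sebocyte CPM did overlap, at 2826 to 5466 in wild-type and 1814 to 3773 in NPY-tet. Scd1, the most abundant of the 6, was the 1 that was lower (log2 fold change -0.68, SE 0.32). Leukocyte genes were lower for 4 of 5, with a mean log2 CPM of 4.69 to 5.01 in wild-type and 4.26 to 4.79 in NPY-tet. Fibroblast genes were higher for 2 of 5 and lower for 3, but NPY-tet 1, the library with the most Krt6b, S100a8, S100a9 and Lcn2, stood apart, with a mean log2 CPM of 8.39 against 9.74 to 10.34 in the other 7 libraries. The part of the sebocytes, muscle, leukocytes and fibroblasts in the keratin values was not tested. With the white adipocyte score in the model the log2 fold change turned to -0.34 for Krt6a, -0.25 for Krt16 and -0.070 for Krt17. Higher against lower counts were 8 to 2 for proliferation, 7 to 3 for hair matrix regulators, 4 to 2 for basal keratinocytes and 2 to 1 for Merkel cells and simple epithelium. The groups overlapped in the mean log2 CPM of each of these lists. For proliferation it was 1.85 to 2.91 in wild-type and 1.28, 3.11 and 2.04 in NPY-tet 1 to 3. The listed epithelial keratins of footpad, mouth and oesophagus had 1 of 4 genes tested, with a score of 0.128 to 1.30 in wild-type and 0.0478 to 0.287 in NPY-tet.

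Genes that accompany stress keratins at wound edges split into 2 patterns. Of 16 tested, 12 were higher and 4 lower in NPY-tet (median log2 fold change 0.17), none passed and 3 were higher at an unadjusted p under 0.05, against 2.43% of all genes. Without NPY-tet 1 none had an unadjusted edgeR p under 0.05, against 241 higher and 387 lower of all 19023 genes tested. Without wild-type 5, 9 of 15 were higher at that p, with a median of 1.10. All genes tested in that fit had 837 higher and 822 lower of 18207, and the hair shaft keratins 13 higher of 13. Gjb2 (connexin 26), which joins keratinocytes, and Sprr1a, a precursor of the cornified envelope, were among 7 whose slope on the hair keratin score passed, against 1.78% of all genes rising. Gjb2 had 4.16 to 190 CPM in wild-type and 14.5 to 117 CPM in NPY-tet (slope 0.68, edgeR adjusted p = 6.13e-07; 0.0107 without wild-type 5). Sprr1a had 60.3 to 547 CPM in wild-type and 98.3 to 234 CPM in NPY-tet (slope 0.35, edgeR adjusted p = 0.000384; 1 without wild-type 5).

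S100a8, S100a9 and Lcn2, antimicrobial and neutrophil-associated proteins that keratinocytes also make, were instead highest in NPY-tet 1, the library with the most Krt6b. S100a8 had 10.4 CPM there, 1.27 and 0.952 CPM in NPY-tet 2 and 3 and 0.835 to 1.505 CPM in wild-type. S100a9 had 5.15 CPM there and 0.340 to 1.33 CPM elsewhere, and Lcn2 7.93 CPM against 1.05 to 2.17 CPM. Their log2 fold changes were 2.05, 2.04 and 1.30, none past the adjusted test (edgeR adjusted p = 0.748, 0.623 and 0.783). Without NPY-tet 1 the log2 fold change was 0.14 for S100a8, 0.81 for S100a9 and 0.22 for Lcn2. Within the libraries rich in ribosomal RNA, a set chosen after seeing the data, NPY-tet 1 is the sole NPY-tet library. A fit there assumes that it varies like the wild-type ones and cannot tell genotype from that mouse. No adjusted p from it is given for these genes.

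**Figure D4:**
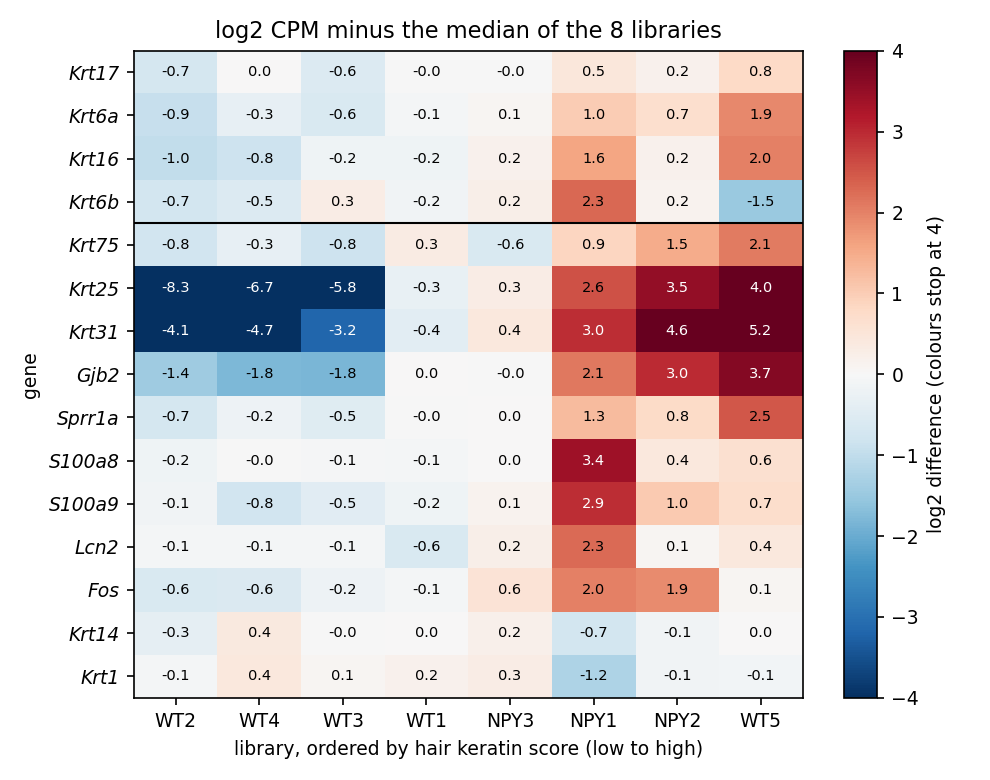
Log2 CPM of the 4 stress keratins (above the line) and 11 companion genes, minus the median of the 8 libraries, with libraries from left to right by rising hair keratin score. Krt17, Krt6a, Krt16, Krt75, Krt25 (inner root sheath), Krt31 (hair shaft), Gjb2 and Sprr1a are highest in wild-type 5, and Krt6b, S100a8, S100a9, Lcn2 and Fos in NPY-tet 1.

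Of 17 transcription regulators known to act on stress keratin genes, 12 were higher and 5 lower in NPY-tet (median log2 fold change 0.14), none passed in edgeR, and 4 were higher at an unadjusted p under 0.05, against 2.43% of all genes. Fos, an AP-1 subunit, had 20.1 to 32.2 CPM in wild-type and 124, 113 and 45.2 CPM in NPY-tet 1 to 3, so the groups did not overlap, which held with NPY-tet above for 1.81% of all genes. Its log2 fold change was 1.87 (SE 0.30, edgeR adjusted p = 0.298), and DESeq2 called it (adjusted p = 2.49e-07). In edgeR it also passed without NPY-tet 3 (adjusted p = 0.00134), where 1 to 8 genes passed in the fits that left out 1 library. The sets rich and poor in ribosomal RNA each hold 1 mouse of a group, so no adjusted p from them is given for Fos. Nfkbiz, a co-activator downstream of interleukin-17 and interleukin-36, had 8.25 to 19.7 CPM in wild-type and 23.4 to 44.9 CPM in NPY-tet (log2 fold change 1.03, SE 0.28, edgeR adjusted p = 0.594). Junb, another AP-1 subunit, had a log2 fold change of 0.66 (SE 0.19, edgeR adjusted p = 0.609). Of the 12 interleukin-1, interleukin-36 and type 17 signals tested, 8 were higher and 4 lower with none past the adjusted edgeR test. Il36g, an interleukin-36 cytokine, had 8.85 to 12.1 CPM in wild-type and 13.0 to 16.9 CPM in NPY-tet (log2 fold change 0.60, SE 0.16, edgeR adjusted p = 0.583). Il17a had at most 4 counts and Il22 had 0 counts in each library. Of 10 EGF family ligands and receptors, 8 were higher and 2 lower, none past the adjusted edgeR test. Hbegf, a ligand of the EGF receptor, had a log2 fold change of 0.68 (SE 0.27, edgeR adjusted p = 0.795). Nrf2 targets split 4 to 4, and genes for keratin linkers and binding partners 5 to 5. Over all 168 listed genes tested, edgeR called 0, with 15 higher and 4 lower at an unadjusted p under 0.05, against 450 higher and 656 lower among all 18495 genes. DESeq2 called 3 of the 163 listed genes to which it gave an adjusted p, which were Fos and the sebocyte genes Awat1 and Elovl3. It called 61 genes in all, and the number that it tested in all is not given here. Limma-voom called 0.

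The genes most like each keratin in log2 CPM over the 8 libraries are given as a description, since single extreme libraries can weigh heavily in these correlations. Wild-type 5 was the highest library for Krt6a, Krt16 and Krt17. For Krt6b, NPY-tet 1 was the highest (63 counts) and wild-type 5 the lowest (2 counts). For Krt6a they were Rab15 (Pearson r = 0.992), Proser2 (0.990), Sprr1a (0.990), Ptprk (0.979) and Gsdma (0.977). For Krt17 they were Gsdma (r = 0.978), Pnpla1 (0.963), Txlna (0.961), Sema7a (0.960) and Ptprk (0.959), so Gsdma and Ptprk stood on both lists. For Krt16 they were Gpx2 (r = 0.978), Reps1 (0.964), Arid5b (0.963), Atp12a (0.960) and Stox1 (0.953). For Krt6b they included Cnksr1 (r = 0.928), Actr8 (0.926), Fxr2 (0.925) and Harbi1 (0.924), none of these 4 on the other 3 lists.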

How the data were processed

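Whole-skin RNA-seq of 5 wild-type and 3 NPY-tet mice was used. Per the submitters' processing notes, reads were handled with CASAVA, HISAT2 2.0.5, featureCounts 1.5.0-p3 and DESeq2 1.20.0 on mm39, with no role or order stated. The deposited counts are raw reads per gene, and the deposited FPKM values are scaled by the authors to gene length and depth. Replicate numbers follow the sample titles, which state no pairing of animals. For wild-type 3 to 5 and all NPY-tet libraries the labels give different mouse numbers in different fields, with the same genotype. Which mouse a library came from is therefore uncertain.

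Counts were filtered (filterByExpr, 18495 genes kept), TMM-scaled and tested with edgeR 4.0.16 by quasi-likelihood in R 4.3.3; CPM are TMM-scaled, and log2 CPM use a prior count of 2. Alternatives were DESeq2 1.42.0, limma 3.58.1 with voom, limma on log2(FPKM + 1) and log2(FPKM + 0.1), other filters, covariates, a replicate block and leaving out each library. The fits were tested on simulated data. The hair keratin score used 15 of 16 listed genes; Krt85 was not analysed here. Ratios to hair keratins were tested by exact permutation. Sequences came from GENCODE M21 transcripts (GRCm38), a build other than that of the files, and were used for letters and positions in the coding sequence alone. Members and the 20 gene lists were chosen with earlier results of these data known. Genes named were the 4 keratins, Npy, up to 4 per list by smallest p, and 5 per keratin by correlation, of which 1 for Krt6b is not reported here; Krt75, Gjb2, Sprr1a, Krt14, Gm49428, Il17a, Il22, Awat1 and any other gene outside this rule were chosen after their values were seen. Reading the slope on the hair score was also added after seeing the data.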

Additional observations from a re-analysis of the deposited data

Results flagged for a closer look

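Of 40 sets of wild-type values examined with Dixon's test, 19 had 1 value far from the other 4. Chance gives about 1 in 20 for independent sets picked before their values are seen, which does not hold here. In 18 of them that value came from wild-type 5, and these sets are not independent, since they share the library. Krt6a (259 CPM), Krt16 (37.1 CPM) and the summed hair shaft keratins (1246 CPM) stood high there. So did the companion-layer marker Krt75 (250 CPM), Sox9 (68.5 CPM), the EGF receptor ligand Tgfa (48.7 CPM), Gjb2 (190 CPM) and Sprr1a (547 CPM). Genes named for likeness to the stress keratins were high in the same library, with Rab15 at 40.1 CPM, Gsdma at 97.8 CPM, Ptprk at 37.4 CPM, Proser2 at 16.9 CPM, Gpx2 at 8.995 CPM and Stox1 at 4.18 CPM. They were picked by correlation over these same libraries, so high values in wild-type 5 follow largely from that choice. Their flags add nothing to the count. S100a8 (1.505 CPM) and Npy (0.502 CPM) were also highest there among wild-type mice. The log2 ratio to hair shaft keratins was lowest in wild-type 5 for Krt6b (-14.19) and Krt17 (-0.038). In wild-type 3, Erbb3 (81.2 CPM) lay below the other wild-type libraries.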

How the results depend on the processing

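Npy passed in each setting run, and none of the 4 keratins passed the genotype test in any setting that gave an adjusted p; Krt6b could not be fitted under the filter of 1 CPM in 3 libraries. The number of genes past the threshold was 1 with all libraries, and 21 without a filter, 61 with DESeq2, 3 with limma-voom, 2 with limma on log2(FPKM + 1), 2 on log2(FPKM + 0.1), 12 with the ribosomal RNA share as covariate and 1 to 8 when 1 library was left out. Of settings chosen after seeing the data, the libraries rich in ribosomal RNA alone gave 332, the poor ones alone 227, and leaving out NPY-tet 1 and wild-type 5 gave 6. Deviations of same-numbered libraries from their group means had correlations of -0.044, -0.105 and 0.298. Without the same value for differently numbered libraries, these cannot show whether numbers pair animals. The replicate block gave 2 genes, with log2 fold changes of 1.14 for Krt6a, 1.26 for Krt6b, 1.09 for Krt16 and 0.62 for Krt17.

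The genotype difference changed sign with the hair keratin score (-0.41 for Krt6a, -0.25 for Krt16, -0.18 for Krt17) and with the white adipocyte score (-0.34, -0.25 and -0.070, and 0.0099 for Krt77). With 1 library left out it ran from -0.0093 to 1.10 for Krt6a, from -0.30 to 1.31 for Krt16 and from -0.43 to 0.012 for Krt14, which was also 0.012 without NPY-tet 1 and wild-type 5. The cause was not tested.

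With the hair keratin score in the model, the genotype difference ran from -0.60 to 0.18 for Krt6a, -0.75 to 0.57 for Krt16 and -0.29 to 0.049 for Krt17 when 1 library was left out; 1 to 3 genes passed, and 2 with limma-voom. With the replicate block it was 0.43 for Krt6a, 0.95 for Krt16 and 0.27 for Krt17, and without NPY-tet 1 and wild-type 5 it was 0.033 for Krt6a and 0.22 for Krt16.

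The slope on that score ran from 0.19 to 0.32 for Krt6a, -0.23 to 0.14 for Krt6b, 0.16 to 0.36 for Krt16 and 0.092 to 0.17 for Krt17 when 1 library was left out, with 26 to 439 genes past the threshold against 344 with all libraries. With the replicate block it was 0.15 for Krt6a and 0.030 for Krt16, with 24 genes; limma-voom gave 0.15 for Krt17, which then passed, with 606 genes; without NPY-tet 1 and wild-type 5 it was 0.17 for Krt6a, 0.049 for Krt6b and 0.10 for Krt16, with 41 genes. For the log2 ratio to hair keratins the range was -3.52 to -1.75 for Krt6a, -3.27 to -0.23 for Krt6b, -3.42 to -1.41 for Krt16 and -4.09 to -2.004 for Krt17. Without wild-type 5 each had an exact permutation p of 0.0286, where the shared hair keratin sum separates the groups by itself. With Krt14 plus Krt5 as the denominator the difference was 0.78, 1.86, 0.85 and 0.47 in the same order. At 2 to 63 counts per library, depth limits Krt6b.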

Other observations

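Gm49428, the non-coding gene on the strand opposite Krt6a, had 0 to 0.0334 CPM in wild-type and 0.258, 0.244 and 0.0577 CPM in NPY-tet 1 to 3, at no more than 10 counts in any library. Krt42, the type I keratin gene beside Krt17, had 0.349, 0.253, 0, 0.09995 and 1.77 CPM in wild-type 1 to 5 and 0.927, 0.461 and 0.115 CPM in NPY-tet 1 to 3.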
